A study of Homo sapiens with 13 samples.

Results

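Lysosomal genes were followed across 4 treatments of AC16 cells. The 33 genes were taken by name: 21 hydrolases and their helpers of the lysosome interior, 6 proteins of the lysosomal membrane and 6 subunits of the proton pump. Their Ensembl gene IDs were paired with symbols, and every one was found among the 63241 gene IDs of each count table. All 33 also passed the filter on low counts that left 16756 genes for testing, so none was dropped.

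AC16 is a human cell line derived from adult ventricular cardiomyocytes that were fused with transformed fibroblasts. Messenger RNA was sequenced in 13 libraries: 3 of cells given preconditioning and then FCCP (preconditioning+FCCP), 4 of cells given preconditioning without FCCP, 3 of cells given FCCP alone and 3 controls. The series describes preconditioning as optogenetic, acting on mitochondria through a construct named mOpto, and FCCP is a protonophore, a compound that carries protons across membranes and so collapses the membrane potential of mitochondria. The genotype label reads wildtype for all 13 libraries, and the labels leave unsaid whether the cells of the control and FCCP groups held mOpto or were illuminated, and give neither the dose nor the time of FCCP. Whether the libraries of a group were grown as separate cultures is not stated; the p-values therefore rest on a library-to-library spread that could be technical.

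Lysosomes are acid compartments in which hydrolases break down proteins, glycans, lipids and glycogen delivered by endocytosis and autophagy. The vacuolar ATPase, the proton pump of the lysosome, keeps them acid: its cytosolic V1 sector splits ATP and its membrane V0 sector passes the protons. Many of these genes carry a promoter element called CLEAR, whose core TCACGTG is bound by the transcription factors TFEB, TFE3 and MITF, and the family is therefore often switched as a network. Heart muscle depends on the pathway: inherited loss of GAA (Pompe disease), of LAMP2 (Danon disease) or of GLA (Fabry disease) causes cardiomyopathy.

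The promoters of 20 of the 33 genes were matched in RefSeq (GRCh38.p14), each a window of 300 bases, from 250 before to 50 after the gene's start. The letters TCACGTG, read on either strand and so including CACGTGA, were in 8 of the 20: the hydrolase genes CTSA, CTSD, GAA and NEU1, the membrane protein genes LAMP1, MCOLN1 and CLN3, and the pump gene ATP6V0D1. Among all 35116 RefSeq promoters of that length 3.71% held them, and of the 11752 promoters of genes tested here 5.73%. The shorter CACGTG, which lies inside TCACGTG, was in 9 of the 20, CD63 being added, against 7.26% of all promoters and 9.87% of those of genes tested. Stretches of 6 of these promoters are shown because they carry the shared element, taken in order of the smallest adjusted p of the gene. Each reads 5′ to 3′ on the gene's strand, and capitals mark every TCACGTG match on either strand, overlapping matches joined into TCACGTGA. The stretches are GAA chr17:80101510-80101580 (+), NEU1 chr6:31862902-31862988 (−), CTSA chr20:45891270-45891334 (+), LAMP1 chr13:113297171-113297238 (+), MCOLN1 chr19:7522570-7522623 (+) and ATP6V0D1 chr16:67481170-67481256 (−), all upstream of the start.
GAA: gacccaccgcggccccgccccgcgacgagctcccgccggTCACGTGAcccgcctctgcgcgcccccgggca
NEU1: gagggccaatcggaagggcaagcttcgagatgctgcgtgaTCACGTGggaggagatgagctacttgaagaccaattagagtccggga
CTSA: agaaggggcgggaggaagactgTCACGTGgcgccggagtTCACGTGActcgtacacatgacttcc
LAMP1: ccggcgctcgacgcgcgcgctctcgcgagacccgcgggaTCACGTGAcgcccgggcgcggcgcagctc
MCOLN1: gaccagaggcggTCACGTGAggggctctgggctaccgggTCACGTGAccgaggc
ATP6V0D1: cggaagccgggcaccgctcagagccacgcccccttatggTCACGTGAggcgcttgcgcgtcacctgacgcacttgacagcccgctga
The stretches show only a part of each window. Over the whole windows, overlapping matches counted once, LAMP1 held 6 separate sites, 5 of them upstream of the start, GAA, CTSA, MCOLN1 and CLN3 held 2 each, and NEU1, CTSD and ATP6V0D1 held 1 each. A match of letters is a description of the sequence and does not show that a factor was bound.

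The libraries held 14970803 to 20636229 gene counts. Levels are given as CPM, read counts of a gene scaled to a common library size, with TMM factors. Control 3, FCCP 1 and preconditioning+FCCP 3 stood apart from their own groups. Mitochondrial genes took 6.42% of counts in preconditioning+FCCP 3 against 1.33% and 2.32% in the other libraries of that group, 6.49% in FCCP 1 against 1.94% and 1.55%, and 3.00% in control 3 against 9.58% and 8.95%. Reads with several alignments made up 7.13% to 11.5% in 6 libraries (preconditioning+FCCP 3, the 3 FCCP libraries, control 1 and control 2), here the higher-share set, and 3.16% to 5.22% in the other 7, here the lower-share set. The counts of called genes below are therefore also given without those 3 libraries, and those over the 33 genes also within a set where both groups had a library there, settings that were chosen with the data in view; single genes are given so only where stated. The cell type label reads myocyte, yet of 12 cardiomyocyte markers 8 stayed under 1 CPM in every library, with TNNT2 at 0 in all. The summed level of these 12 was 5.04 to 6.33 CPM in preconditioning+FCCP, 5.27 to 11.5 CPM in preconditioning, 3.61 to 9.39 CPM in FCCP and 3.89 to 12.45 CPM in control libraries. All 10 fibroblast markers were expressed, with a summed level of 997 to 1150 CPM in preconditioning+FCCP, 5699 to 6504 CPM in preconditioning, 4370 to 7657 CPM in FCCP and 3633 to 7545 CPM in control libraries. The 8 markers of macrophages, cells rich in lysosomes, summed to at most 11.05 CPM in any library. The 6 endothelial markers summed to 3.45 to 5.26 CPM in preconditioning+FCCP, 21.9 to 26.6 CPM in preconditioning, 9.23 to 15.7 CPM in FCCP and 8.74 to 18.5 CPM in control libraries.

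Per kilobase of transcript, the lysosomal genes spanned a wide range of mean level over the 13 libraries. CD63, a tetraspanin of late endosomes and lysosomes, was the highest at 422 CPM per kilobase, followed by PSAP, the precursor of the saposins that help sphingolipid hydrolases, at 218. The cathepsins CTSA, CTSZ and CTSB, which are proteases, and LAMP1, the most abundant glycoprotein of the lysosomal membrane, lay at 135, 128, 125 and 124 CPM per kilobase. At the low end were NAGLU at 8.12, CTSK at 6.38 and HEXA at 3.95 CPM per kilobase. CLN3, a membrane protein lost in juvenile Batten disease, was at 0 to 1.38 CPM in single libraries, with 104 counts over all 13. In the annotation used for lengths 30.9% of its exon bases are shared with other genes, as are 52.7% of those of CTSD, 28.5% of CTSA, 23.4% of PPT1 and 21.2% of MAN2B1, and reads that fall on several genes are not in the counts, so these levels are less certain. HEXA and NAGLU, at the low end, share 16.3% and 12.6% of their exon bases in the same way, and CTSK 0.0%. CLN3 is left out of the figures and of statements on single genes.

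Among the other 32 genes the ratio of the highest to the lowest library was 2.02 at the median. It was widest for CTSK, at 8.17, followed by NAGLU (3.54), ARSA (3.48), ATP6V0D1 (3.43) and MCOLN1 (3.40), and narrowest for SCARB2, at 1.52. In bulk libraries such as these, a lower level in every cell and fewer cells with the transcript cannot be told apart. Summed over the 21 hydrolase genes, the level averaged 2919 ± 135 CPM in preconditioning+FCCP (SD, n = 3), 2950 ± 196 in preconditioning (n = 4), 3490 ± 346 in FCCP (n = 3) and 2633 ± 156 CPM in control libraries (n = 3). The 6 membrane protein genes summed to 1359 ± 98.5 CPM in preconditioning+FCCP, 1491 ± 41.2 in preconditioning, 1502 ± 126 in FCCP and 1260 ± 142 CPM in control libraries. The 6 pump genes summed to 822.5 ± 75.9 CPM in preconditioning+FCCP, 729 ± 46.2 in preconditioning, 811 ± 69.6 in FCCP and 633.5 ± 89.6 CPM in control libraries. All 3 sums were lowest in the control group, but control 3 lay above its group in each of them, at 2795, 1418 and 714 CPM.

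**Figure D1:**
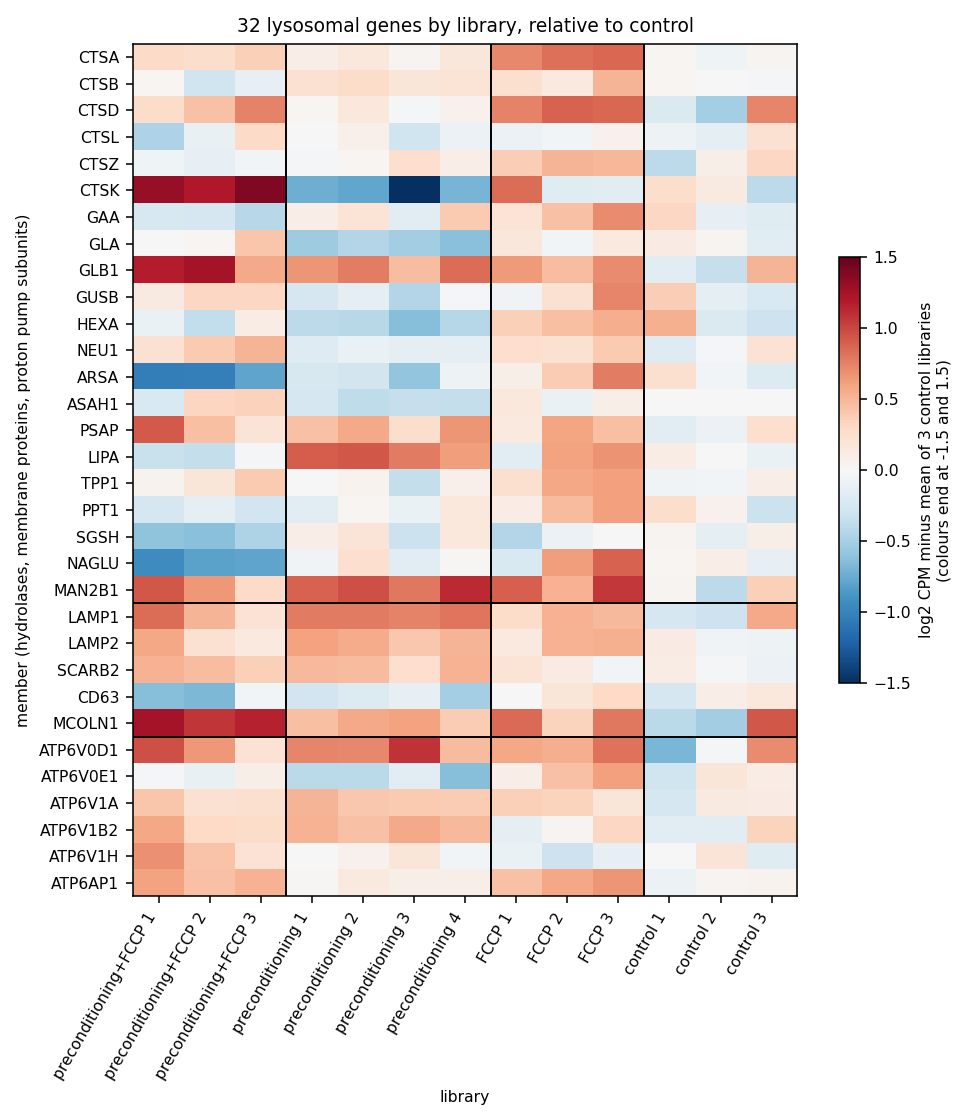
Each cell is the log2 CPM of a gene in a library minus its mean over the 3 control libraries, for 32 genes in rows (hydrolases, membrane proteins, proton pump subunits from top to bottom, parted by lines) and 13 libraries in columns. CTSK is high in the 3 preconditioning+FCCP libraries (20.0 to 22.7 CPM) and low in the 4 preconditioning libraries (2.78 to 5.35 CPM), ARSA and NAGLU are low in preconditioning+FCCP, and control 3 differs from control 1 and 2 for CTSD, MCOLN1, LAMP1 and ATP6V0D1.

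FCCP alone raised 2 of the 33 genes and lowered none. Cathepsin A (CTSA, ENSG00000064601), a carboxypeptidase that also protects GLB1 and NEU1 from degradation, had 381, 412 and 423 CPM in FCCP libraries, against 237, 223 and 238 CPM in control libraries. ATP6AP1 (ENSG00000071553), an accessory subunit of the proton pump, had 257, 284 and 300 CPM with FCCP, against 178, 194 and 197 CPM in control. In both genes every FCCP library lay above every control library. CTSA rose 1.74-fold, a log2 change of 0.80 ± 0.15 (± SE here and below; adjusted p = 0.0158), and ATP6AP1 rose 1.48-fold, by 0.56 ± 0.15 (adjusted p = 0.0467). Adjusted p-values are from edgeR's quasi-likelihood test with Benjamini-Hochberg adjustment, over all 16756 genes in the main fit. Fits on fewer libraries were adjusted over the genes that each of them kept. Adjusted p-values under 0.05 count as called, and this holds below unless another tool or threshold is named.

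The 2 genes called are 6.06% of the 33, where 1.60% of all genes tested were called higher and 1.92% lower. At an unadjusted p under 0.05, edgeR gave 10 of the 33 as higher and 0 as lower. The largest p among these 10, 0.0476 for PPT1, ranked 3362 of 16756 genes, so a large share of all genes also passed that threshold. DESeq2 called 3 of the 33 higher and limma-voom 2, and 0 lower, where 8.24% and 2.28% of all genes were called in either direction. Of the 21 hydrolases 1 was called, of the 6 membrane proteins 0 (1 at an unadjusted p under 0.05) and of the 6 pump subunits 1. The log2 change was above 0 for 30 of the 33, with a median of 0.40, while 47.1% of all genes were above 0 and their median was −0.04. By role the medians were close: 0.40 for hydrolases, 0.39 for membrane proteins and 0.33 for pump subunits. For 10 genes (30.3%) the FCCP and control libraries did not overlap, which held for 19.3% of all genes.

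Among the hydrolases that were not called, cathepsin D (CTSD), the main aspartic protease of the lysosome, had 172, 189 and 187 CPM in FCCP libraries and 88.2, 72.0 and 171 CPM in control libraries. MAN2B1, an alpha-mannosidase, had 66.6, 51.2 and 74.8 CPM with FCCP and 36.8, 27.2 and 45.7 CPM in control. In both genes control 3 was the highest control library. The same library stood above control 1 and 2 for the membrane proteins LAMP1 (287, 339 and 332 CPM with FCCP, against 198, 191 and 349.8 CPM in control) and MCOLN1, a calcium channel of the lysosome (40.3, 28.2 and 38.7 CPM with FCCP, against 16.9, 15.6 and 42.7 CPM in control). For the pump subunit ATP6V0D1 the 3 FCCP libraries read 125, 123 and 147 CPM and the control libraries 52.1, 82.8 and 137 CPM. Tripeptidyl peptidase TPP1 had 108, 136 and 139.8 CPM with FCCP and 88.0, 88.6 and 97.5 CPM in control.

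Left out one at a time, no library ended the call of CTSA, whereas that of ATP6AP1 ended in 10 of 13 such fits, among them those without control 1, control 2, FCCP 2 or FCCP 3. Without control 3, FCCP 1 and preconditioning+FCCP 3 together, 16 of the 33 were called, all higher: 9 hydrolases, 4 membrane proteins and 3 pump subunits, where 18.1% of 17202 genes were called in either direction. CTSA then changed by 0.83 on the log2 scale, CTSD by 1.20, MCOLN1 by 1.01, ATP6V0D1 by 0.97 and LAMP1 by 0.75. Within the higher-share set, 3 FCCP against 2 control libraries, edgeR called 0 of the 33 and 31 of 17819 genes, with 13 of the 33 higher at an unadjusted p under 0.05. CTSA changed there by 0.86 ± 0.18 (adjusted p = 0.104) and CTSD by 1.24 ± 0.20 (adjusted p = 0.0503).

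Preconditioning without FCCP raised 7 of the 33 genes and lowered 2. The hydrolases that rose were MAN2B1, LIPA and GLB1, the membrane proteins LAMP1, LAMP2 and SCARB2, and the pump subunit ATP6V1B2, while the hydrolases CTSK and GLA fell. The 7 are 21.2% of the genes, where 10.5% of all genes tested were called higher, and the 2 are 6.06%, where 13.0% were called lower. Median log2 changes of the 33 genes were −0.03 for hydrolases, 0.39 for membrane proteins and 0.25 for pump subunits, against −0.02 for all genes. The lists of other lysosomal genes, described below, did not repeat this order. Their medians were 0.27 for hydrolases and activators, 0.34 for membrane proteins and −0.02 for pump subunits. Libraries of both groups did not overlap for 14 of the 33 (42.4%), and for 36.7% of all genes.

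LIPA (ENSG00000107798), the acid lipase that frees cholesterol and fatty acids from lipoprotein lipids, had 111, 112, 101 and 91.1 CPM in preconditioning libraries, against 63.2, 58.6 and 54.8 CPM in control libraries. MAN2B1 (ENSG00000104774) had 66.3, 69.9, 61.8 and 78.0 CPM with preconditioning, against 36.8, 27.2 and 45.7 CPM in control. No preconditioning library reached down to a control library in either gene. LIPA rose 1.76-fold, by 0.81 ± 0.19 on the log2 scale (adjusted p = 0.00842), and MAN2B1 1.89-fold, by 0.92 ± 0.21 (adjusted p = 0.00728). These were the 2 of the 9 calls that held without each library in turn. GLB1, the beta-galactosidase used as a mark of senescence, had 75.3, 81.2, 65.9 and 85.3 CPM with preconditioning, against 42.5, 37.5 and 67.9 CPM in control, where control 3 lay inside the preconditioning range (0.64 ± 0.21, adjusted p = 0.041).

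For the membrane proteins, LAMP1 (ENSG00000185896) had 404, 405, 395 and 413 CPM with preconditioning, against 198, 191 and 349.8 CPM in control. LAMP2, a glycoprotein needed for the fusion of autophagosomes and for chaperone-mediated autophagy, had 390.2, 376, 339.8 and 365 CPM with preconditioning, against 279, 248 and 244 CPM in control. SCARB2, the receptor that carries beta-glucocerebrosidase to the lysosome, had 224, 223, 190.3 and 230 CPM with preconditioning, against 173, 157 and 151 CPM in control. The groups did not overlap in any of the 3, and in LAMP1 control 3 lay far above control 1 and 2. Changes were 0.72 ± 0.21 for LAMP1 (adjusted p = 0.0261), 0.52 ± 0.16 for LAMP2 (adjusted p = 0.0338) and 0.44 ± 0.14 for SCARB2 (adjusted p = 0.0379). CD63, which was not called, had 465, 492, 522 and 399 CPM with preconditioning and 475, 608 and 629.8 CPM in control.

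Among pump subunits, ATP6V1B2, which forms part of the ATP-splitting ring of V1, had 132, 125, 136 and 129 CPM with preconditioning, against 82.0, 81.5 and 116 CPM in control (0.48 ± 0.17, adjusted p = 0.0479). Its partner in the ring, ATP6V1A, had 94.2, 87.0, 86.6 and 85.7 CPM with preconditioning, against 55.4, 72.4 and 71.7 CPM in control, and missed the threshold (adjusted p = 0.0504). Of the 2 genes that fell, GLA, the alpha-galactosidase lost in Fabry disease, had 61.2, 65.0, 61.7 and 57.3 CPM with preconditioning, against 96.6, 90.7 and 79.2 CPM in control (−0.53 ± 0.15, adjusted p = 0.0189). Cathepsin K (CTSK, ENSG00000143387), a collagen-degrading protease best known from bone resorption, had 5.24, 5.06, 2.78 and 5.35 CPM with preconditioning, against 10.4, 9.53 and 6.63 CPM in control (−0.94 ± 0.30, adjusted p = 0.0317). Every preconditioning library lay below every control library in both.

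All 4 preconditioning libraries belonged to the lower-share set, with control 3 as the one control library there. Against control 3 alone, where the lone library is assumed to vary like the other groups, 5 of the 33 were called: LIPA (0.92), MAN2B1 (0.60), LAMP2 (0.60) and SCARB2 (0.53) higher and CTSD lower (−0.67, which was −0.04 over all control libraries), where 19.9% of 17481 genes were called. LAMP1 changed there by 0.22 ± 0.17 and GLB1 by 0.19 ± 0.16, and the median of the membrane proteins was −0.10. That median includes CLN3. With CLN3 left out, LAMP1 was the middle gene, with LAMP2 and SCARB2 above it and CD63 and MCOLN1 below it. The sign of the median therefore depends on CLN3. With a term for the set LIPA was the gene called (0.98), where 2.74% of all genes were called. Only control and preconditioning+FCCP had libraries in both sets, so this term was estimated from those groups alone. Without the 3 libraries that stood apart 16 of the 33 were called, 12 higher and 4 lower, where 48.9% of 17202 genes were called in either direction. The membrane median was then 0.71. One library at a time, the calls of LAMP1, LAMP2 and GLB1 ended without control 1, control 2, preconditioning 1, 2 or 4, those of CTSK in 5 fits, GLA in 4, and SCARB2 and ATP6V1B2 in 8 each.

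**Figure D2:**
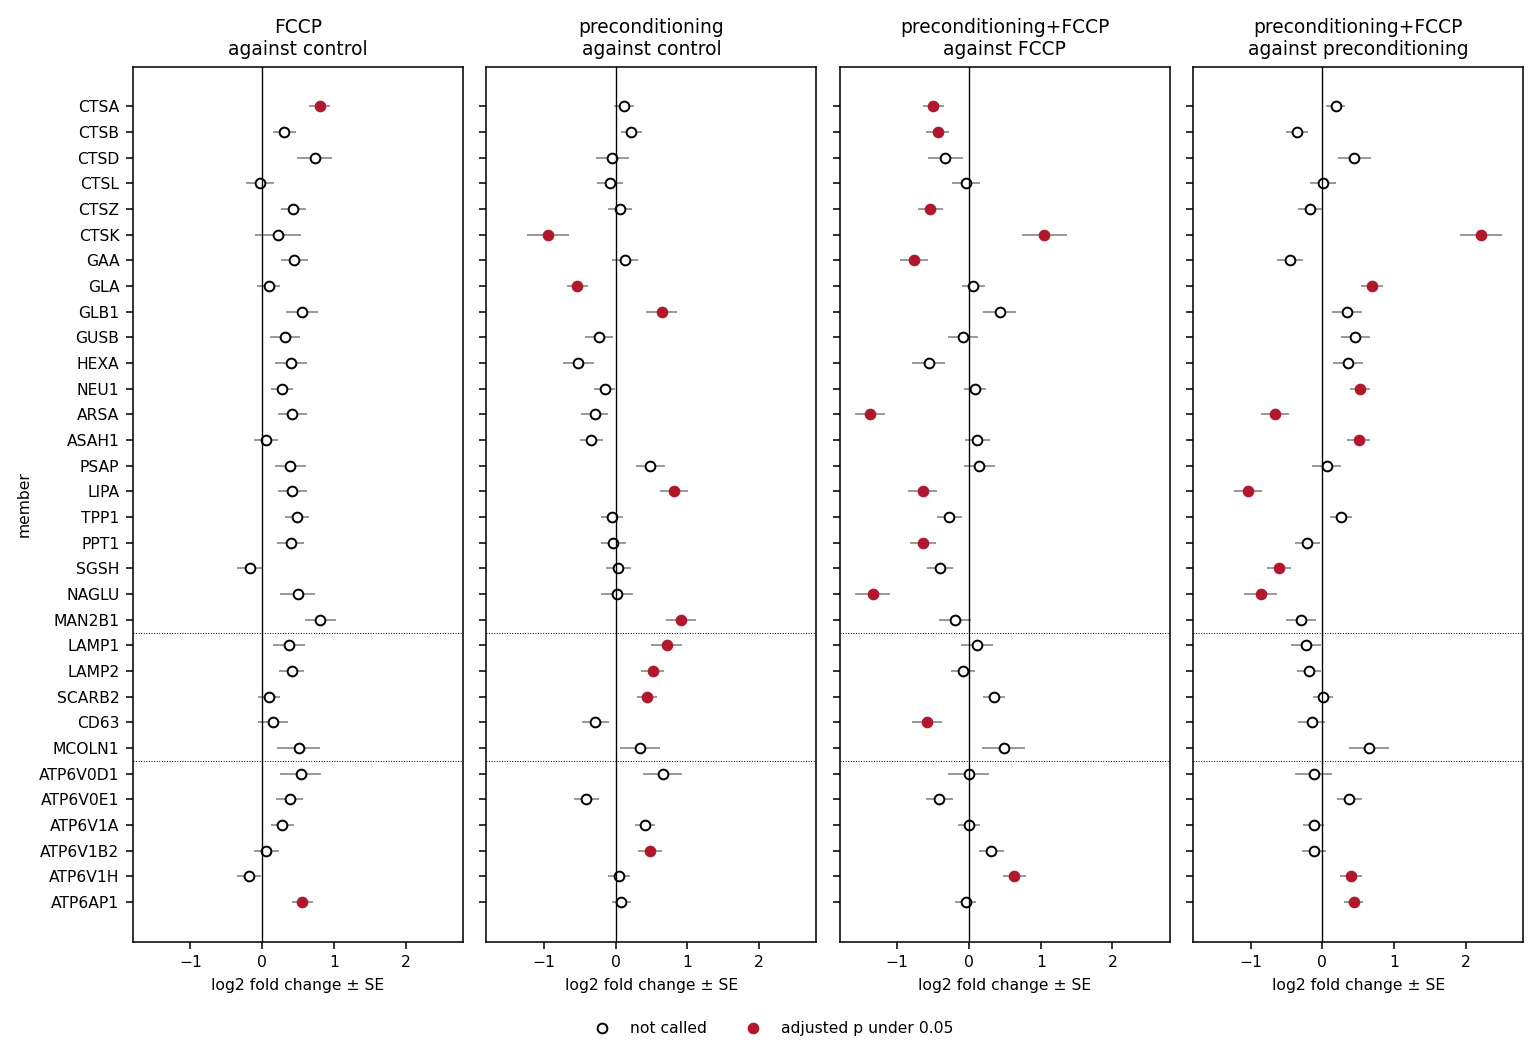
Points are log2 fold changes of 32 genes with their SE in the 4 pairwise comparisons, filled red at an adjusted p under 0.05, with dotted lines between hydrolases, membrane proteins and pump subunits. FCCP against control lies mostly right of 0 with 2 filled points, and preconditioning+FCCP against FCCP has 8 filled hydrolases left of 0.

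Given FCCP, preconditioned cells had lower levels of 9 of the 33 genes and higher levels of 2. Of the 21 hydrolases 8 fell (ARSA, NAGLU, GAA, PPT1, CTSA, LIPA, CTSZ and CTSB) and CTSK rose; of the membrane proteins CD63 fell; of the pump subunits ATP6V1H rose. The 9 are 27.3% of the genes, where 17.7% of all genes tested were called lower, and the 2 are 6.06%, where 17.9% were called higher. Median log2 changes were −0.33 for hydrolases, 0.01 for membrane proteins and 0.00 for pump subunits, against 0.01 for all genes. For 15 of the 33 (45.5%) the libraries of both groups did not overlap, which held for 43.2% of all genes.

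Arylsulfatase A (ARSA, ENSG00000100299), which removes sulfate from sulfatides, had 21.7, 21.8 and 25.7 CPM in preconditioning+FCCP libraries, against 47.3, 57.7 and 75.3 CPM in FCCP libraries. NAGLU (ENSG00000108784), a glucosaminidase of heparan sulfate breakdown, had 10.8, 11.9 and 11.9 CPM with preconditioning+FCCP, against 17.7, 31.9 and 38.2 CPM with FCCP. GAA (ENSG00000171298), the acid alpha-glucosidase of glycogen breakdown, had 138, 138 and 122 CPM with preconditioning+FCCP, against 188, 223 and 268 CPM with FCCP. None of the 3 overlapped between the groups. ARSA fell to 0.38 of its level in FCCP libraries (−1.38 ± 0.21 on the log2 scale, adjusted p = 0.000374), NAGLU to 0.40 (−1.34 ± 0.24, adjusted p = 0.00112) and GAA to 0.59 (−0.77 ± 0.19, adjusted p = 0.00709). These 3 calls held without each library in turn.

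Further hydrolases fell by less. PPT1, a palmitoyl thioesterase lost in infantile Batten disease, had 132, 142 and 128 CPM with preconditioning+FCCP, against 169, 218 and 239.9 CPM with FCCP (−0.64 ± 0.19, adjusted p = 0.0143). CTSA had 284, 278 and 298 CPM with preconditioning+FCCP, against 381, 412 and 423 CPM with FCCP (−0.50 ± 0.14, adjusted p = 0.0147). CTSZ, a carboxypeptidase, had 165, 159 and 168 CPM with preconditioning+FCCP, against 225, 247 and 245 CPM with FCCP (−0.54 ± 0.18, adjusted p = 0.0268). The groups did not overlap in these 3 genes. LIPA had 46.7, 46.1 and 58.1 CPM with preconditioning+FCCP, against 52.7, 89.2 and 94.0 CPM with FCCP, where FCCP 1 lay inside the range of preconditioning+FCCP (−0.65 ± 0.20, adjusted p = 0.0218). Cathepsin B (CTSB) had 453, 362 and 409 CPM with preconditioning+FCCP, against 527, 495 and 635 CPM with FCCP (adjusted p = 0.048).

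CTSK went the other way from these hydrolases, with 21.6, 20.0 and 22.7 CPM in preconditioning+FCCP libraries, against 15.6, 7.70 and 7.73 CPM with FCCP (1.05 ± 0.31, adjusted p = 0.0171). FCCP 1 was the high FCCP library, and the call ended without FCCP 2 or without FCCP 3. Hydrolases that were not called included GLA, at 88.7, 90.0 and 118 CPM against 99.9, 86.3 and 98.2 CPM with FCCP, and ASAH1, the acid ceramidase, at 38.2, 55.9 and 57.0 CPM against 49.96, 42.0 and 47.7 CPM with FCCP. CTSL, a cysteine protease, had 117, 149.8 and 197 CPM in preconditioning+FCCP and 152, 157 and 169 CPM in FCCP libraries. GUSB, the beta-glucuronidase, had 107, 119.6 and 120.4 CPM in preconditioning+FCCP and 93.4, 114 and 160.2 CPM in FCCP libraries.

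Among membrane proteins, CD63 (ENSG00000135404) had 365, 354 and 549.8 CPM with preconditioning+FCCP, against 564, 641 and 696 CPM with FCCP (−0.58 ± 0.21, adjusted p = 0.0365), with preconditioning+FCCP 3 the library nearest to the FCCP group. SCARB2 had 230.2, 221 and 204 CPM with preconditioning+FCCP, against 184, 174 and 155 CPM with FCCP, and was not called (adjusted p = 0.0797). Of the pump subunits, ATP6V1H (ENSG00000047249), a regulatory subunit of V1, had 118, 98.9 and 85.4 CPM with preconditioning+FCCP, against 68.5, 59.0 and 67.1 CPM with FCCP (0.63 ± 0.17, adjusted p = 0.00849). ATP6V0E1, a small V0 subunit, had 116, 110.1 and 126 CPM with preconditioning+FCCP, against 127, 161 and 181 CPM with FCCP, and was not called (adjusted p = 0.0919).

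The summed fibroblast markers moved with this comparison (997 to 1150 CPM in preconditioning+FCCP, against 4370 to 7657 CPM in FCCP libraries), and their part in the lysosomal values was not tested. Of the 2 groups, preconditioning+FCCP 3 was the one preconditioning+FCCP library in the higher-share set, and there the lone library is assumed to vary like the other groups: against the 3 FCCP libraries edgeR called 0 of the 33 and 3 of 17819 genes, with 4 of the 33 lower and 1 higher at an unadjusted p under 0.05. ARSA changed in that set by −1.22 ± 0.34 on the log2 scale (adjusted p = 0.0922), NAGLU by −1.29 ± 0.43 (adjusted p = 0.122) and GAA by −0.89 ± 0.29 (adjusted p = 0.119). Without the 3 libraries that stood apart 14 of the 33 were lower and 5 higher, where 53.9% of 17202 genes were called in either direction. ARSA then fell by 1.62, NAGLU by 1.63 and GAA by 0.84 on the log2 scale, all called. The call of CD63 ended in 6 of 13 fits that left out a library, those of LIPA and CTSZ in 4 each, and those of CTSA, PPT1 and ATP6V1H in 1 each (without preconditioning+FCCP 2, FCCP 3 and FCCP 2). Scaled by library totals alone, the 9 lower and 2 higher became 3 lower (ARSA, NAGLU and GAA) and 3 higher, where 37.1% of all genes were called, and the pump median was 0.19. That scaling moved the median of all genes to 0.19, 0.11 and 0.14 in this comparison, the next and the interaction.

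Against preconditioning alone, preconditioning followed by FCCP raised 6 of the 33 genes and lowered 4. CTSK showed the largest change of any of the 33 genes in the 4 pairwise comparisons, and GLA, NEU1, ASAH1, ATP6V1H and ATP6AP1 also rose, while LIPA, NAGLU, ARSA and SGSH fell. The 6 are 18.2% of the genes, where 20.2% of all genes tested were called higher, and the 4 are 12.1%, where 19.2% were called lower. Both shares are below the background. Of the 6 membrane proteins edgeR called 0 (1 higher at an unadjusted p under 0.05). Counts over all 33 were 12 by DESeq2 and 11 by limma-voom, where 42.6% and 40.5% of all genes were called. For 19 of the 33 (57.6%) the libraries of both groups did not overlap, which held for 52.7% of all genes. Medians were 0.06 for hydrolases, −0.07 for membrane proteins and 0.13 for pump subunits, against 0.02 for all genes.

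CTSK had 21.6, 20.0 and 22.7 CPM in preconditioning+FCCP libraries, against 5.24, 5.06, 2.78 and 5.35 CPM in preconditioning libraries. The groups were far apart, with no overlap. CTSK rose 4.64-fold, by 2.21 ± 0.30 on the log2 scale (adjusted p = 7.22e-05), and by 2.04 to 2.29 without each library in turn. GLA had 88.7, 90.0 and 118 CPM with preconditioning+FCCP, against 61.2, 65.0, 61.7 and 57.3 CPM with preconditioning (0.69 ± 0.15, adjusted p = 0.00212). NEU1, the sialidase that works in a complex with CTSA, had 97.5, 109.9 and 119 CPM with preconditioning+FCCP, against 73.0, 78.0, 76.0 and 75.1 CPM with preconditioning (0.52 ± 0.14, adjusted p = 0.00892). ASAH1 had 38.2, 55.9 and 57.0 CPM with preconditioning+FCCP, against 37.7, 34.3, 35.2 and 34.9 CPM with preconditioning (0.50 ± 0.16, adjusted p = 0.0216), and preconditioning+FCCP 1 was close to the preconditioning libraries. All 4 genes were free of overlap between the groups, and the calls of CTSK, GLA and NEU1 held without each library, while that of ASAH1 ended in 4 of 13 such fits.

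LIPA had 46.7, 46.1 and 58.1 CPM in preconditioning+FCCP libraries, against 111, 112, 101 and 91.1 CPM in preconditioning libraries. It fell to 0.49 of its level with preconditioning alone (−1.04 ± 0.19, adjusted p = 0.000741). NAGLU had 10.8, 11.9 and 11.9 CPM with preconditioning+FCCP, against 20.0, 24.7, 18.5 and 20.9 CPM with preconditioning (−0.86 ± 0.23, adjusted p = 0.00797), and ARSA had 21.7, 21.8 and 25.7 CPM with preconditioning+FCCP, against 37.8, 36.8, 29.5 and 42.2 CPM with preconditioning (−0.67 ± 0.19, adjusted p = 0.0132). SGSH, the sulfamidase that works on heparan sulfate as NAGLU does, had 33.6, 32.98 and 36.8 CPM with preconditioning+FCCP, against 54.6, 58.0, 40.5 and 56.7 CPM with preconditioning (−0.61 ± 0.17, adjusted p = 0.0109). None of these 4 overlapped between the groups, and each call held without each library in turn.

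Of the pump subunits, ATP6AP1 had 287, 257 and 271 CPM with preconditioning+FCCP, against 192, 209, 201 and 201 CPM with preconditioning (0.44 ± 0.14, adjusted p = 0.0183). ATP6V1H had 118, 98.9 and 85.4 CPM with preconditioning+FCCP, against 73.7, 76.9, 83.0 and 71.0 CPM with preconditioning (0.40 ± 0.15, adjusted p = 0.047). Both rose with no overlap, but the call of ATP6V1H ended in 11 of 13 fits that left out a library and that of ATP6AP1 in 2. Among the membrane proteins MCOLN1 had 53.1, 47.1 and 49.7 CPM with preconditioning+FCCP, against 30.7, 33.4, 34.2 and 29.2 CPM with preconditioning, and was not called (adjusted p = 0.0712). LAMP1 had 424, 336 and 274 CPM with preconditioning+FCCP, against 404, 405, 395 and 413 CPM with preconditioning, so its 3 preconditioning+FCCP libraries lay on both sides of the preconditioning group.

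Summed fibroblast markers were 997 to 1150 CPM in preconditioning+FCCP and 5699 to 6504 CPM in preconditioning libraries, and their part was not tested. Without the libraries that stood apart 8 of the 33 were called higher and 7 lower, where 48.2% of 17202 genes were called. Within the lower-share set, preconditioning+FCCP 1 and 2 against the 4 preconditioning libraries, 17 of the 33 were called, 10 higher and 7 lower, where 52.0% of 17481 genes were called. CTSK changed there by 2.17 and LIPA by −1.16 on the log2 scale, ARSA by −0.75 and NAGLU by −0.89.

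**Figure D3:**
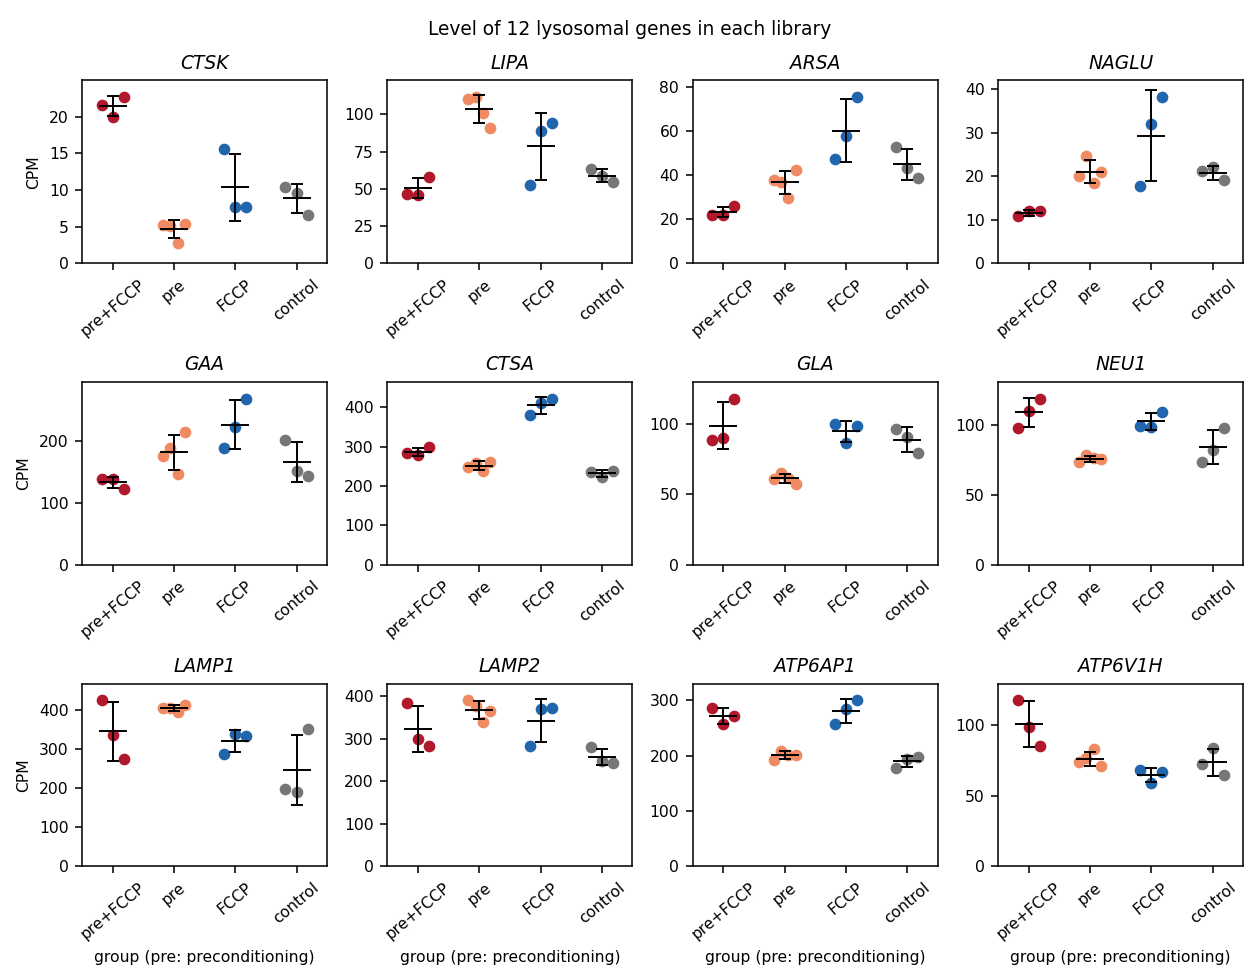
Points are the CPM of 12 genes in each library, with the mean and SD of each group (n = 3, 4, 3 and 3), for preconditioning+FCCP, preconditioning, FCCP and control from left to right. CTSK in preconditioning+FCCP (20.0 to 22.7 CPM) lies above every other library, ARSA and NAGLU are lowest in that group, LIPA is highest with preconditioning (91.1 to 112 CPM) and CTSA with FCCP (381 to 423 CPM).

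The last comparison asked whether FCCP moved a gene differently with preconditioning than without it, as the log2 change of preconditioning+FCCP against preconditioning minus that of FCCP against control. It was called for 7 genes, all of them hydrolases: CTSK higher, and LIPA, NAGLU, ARSA, MAN2B1, GAA and CTSA lower. The 1 higher is 3.03% of the 33, where 9.38% of all genes tested were called higher, and the 6 lower are 18.2%, where 9.60% were called lower. None of the 6 membrane proteins or 6 pump subunits was called by edgeR, with 1 of each at an unadjusted p under 0.05. Over all 33, DESeq2 called 10 and limma-voom 8, where 24.1% and 19.4% of all genes were called. Medians were −0.34 for hydrolases, −0.45 for membrane proteins and −0.15 for pump subunits, against 0.07 for all genes. The membrane median includes CLN3. The other membrane proteins were at −0.60 (LAMP1), −0.60 (LAMP2), −0.30 (CD63), −0.08 (SCARB2) and 0.14 (MCOLN1). Their middle value is −0.30, so the order of membrane proteins and hydrolases depends on CLN3.

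For CTSK the FCCP change was 2.21 ± 0.30 with preconditioning and 0.22 ± 0.31 without it, a difference of 1.99 ± 0.43 (adjusted p = 0.00609). LIPA changed by −1.04 ± 0.19 with preconditioning and by 0.42 ± 0.20 without it, and the difference was −1.46 ± 0.28 (adjusted p = 0.00322). NAGLU changed by −0.86 ± 0.23 with and 0.50 ± 0.24 without preconditioning, with a difference of −1.36 ± 0.33 (adjusted p = 0.0113). ARSA changed by −0.67 ± 0.19 with and 0.42 ± 0.20 without preconditioning, with a difference of −1.09 ± 0.28 (adjusted p = 0.0147). In LIPA, NAGLU and ARSA the change was a called fall with preconditioning, and was above 0 without passing the test in its absence. MAN2B1 changed by −0.30 ± 0.20 with and 0.81 ± 0.22 without preconditioning, neither of which was called, and its difference was −1.11 ± 0.30 (adjusted p = 0.0187). GAA differed by −0.90 ± 0.27 (adjusted p = 0.028) and CTSA, called with FCCP alone, by −0.62 ± 0.20 (adjusted p = 0.04).

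The differences of CTSK, LIPA, NAGLU, ARSA and MAN2B1 were called without each library in turn, that of GAA was lost in 5 of 13 such fits and that of CTSA in 10. Without the 3 libraries that stood apart 19 of the 33 were called, 3 higher and 16 lower, where 37.3% of 17202 genes were called, and with a term for the library set 13 were, 2 higher and 11 lower, where 26.9% of genes were called. LAMP1 was among them in both fits, at −0.87 and −0.67 on the log2 scale. The set term rests on control and preconditioning+FCCP, the groups with libraries in both sets, and so on libraries that stood apart. Scaled by library totals alone the 1 higher and 6 lower became 2 higher and 3 lower (LIPA, NAGLU and ARSA), where 18.7% of genes were called, and MAN2B1, GAA and CTSA missed the threshold. Summed fibroblast markers were 997 to 1150 CPM in preconditioning+FCCP, 5699 to 6504 CPM in preconditioning, 4370 to 7657 CPM in FCCP and 3633 to 7545 CPM in control libraries, and their part in these differences was not tested.

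**Figure D4:**
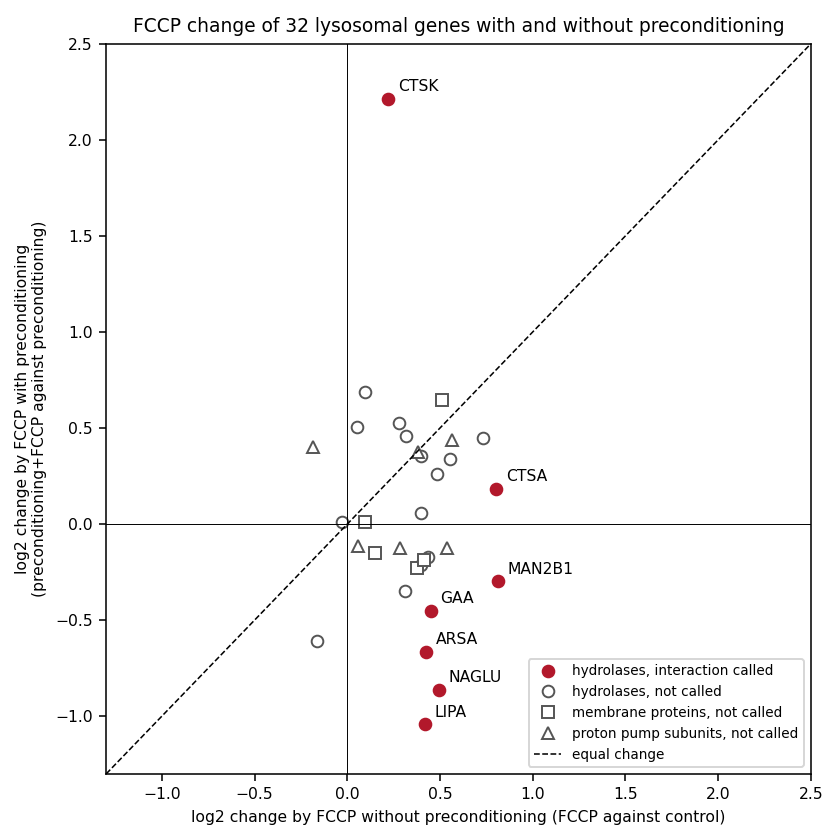
The log2 change by FCCP with preconditioning (vertical) is plotted against that without it (horizontal) for 32 genes, with symbols for the roles, the dashed line at equal change and filled red symbols where the difference was called. CTSK lies far above the line (2.21 against 0.22), and CTSA, MAN2B1, GAA, ARSA, NAGLU and LIPA lie below it.

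Over the 4 pairwise comparisons 11 of the 33 genes were called in none, 14 in 1, 6 in 2 and 2 in 3. LIPA and CTSK were those called in 3. The 11 never called were 6 hydrolases, the membrane proteins MCOLN1 and CLN3 and the pump subunits ATP6V0D1, ATP6V0E1 and ATP6V1A. The 6 hydrolases were CTSD, CTSL, GUSB, HEXA, PSAP and TPP1. HEXA, the hexosaminidase subunit lost in Tay-Sachs disease, ranged from 13.4 to 30.7 CPM over the 13 libraries, CTSL from 117 to 197, GUSB from 71.1 to 160.2, TPP1 from 71.3 to 139.8 and CTSD from 72.0 to 189 CPM. PSAP ranged from 428 to 902 CPM and was highest in preconditioning+FCCP 1. Among the pump subunits ATP6V0D1, which holds the V0 stalk, ranged from 52.1 to 179 CPM, ATP6V0E1 from 76.4 to 181 and ATP6V1A from 55.4 to 94.2 CPM.

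Other lysosomal hydrolases and activators were counted from a list of 40 genes, 39 of them tested. With FCCP against control 5 were called higher and 0 lower, where 1.60% and 1.92% of all genes were, with a median log2 change of 0.46. Progranulin (GRN), a precursor of lysosomal granulins, rose by 1.07 ± 0.18 on the log2 scale (688 ± 116 CPM with FCCP and 328 ± 22.4 CPM in control libraries; SD), the nuclease DNASE2 by 0.81 ± 0.16 and the carboxypeptidase PRCP by 0.92 ± 0.20, the call of PRCP ending without FCCP 2, FCCP 3 or control 2 and that of DNASE2 without FCCP 2. With preconditioning against control 9 were higher and 2 lower, where 10.5% and 13.0% of all genes were, among them the iduronate sulfatase IDS (1.58 ± 0.28). Under FCCP, preconditioned cells had 4 of the 39 higher and 10 lower, where 17.9% and 17.7% of all genes were called. The lower ones with the smallest adjusted p were the hyaluronidase HYAL2 (−1.93 ± 0.26), TMEM9 (−0.91 ± 0.15) and cathepsin H (CTSH, −1.55 ± 0.26). TMEM9 was counted in this list, although it is a membrane protein that assists the proton pump and not a hydrolase. Against preconditioning alone 8 were higher and 9 lower, where 20.2% and 19.2% of all genes were. The interaction was called for 12 of the 39, all lower, where 9.60% of all genes were called lower, SUMF1, the enzyme that activates sulfatases such as ARSA and SGSH, having the smallest adjusted p (−1.51 ± 0.29, adjusted p = 0.00342). Without the 3 libraries that stood apart, 14 of the 39 were higher and 1 lower with FCCP against control, 15 and 9 with preconditioning against control, 6 and 14 with preconditioning+FCCP against FCCP, 9 and 16 against preconditioning, and 2 and 17 in the interaction. Of all genes 18.1%, 48.9%, 53.9%, 48.2% and 37.3% were called in these fits, in the same order.

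Of 16 other pump subunits tested, 1 was higher and 0 lower with FCCP against control, where 1.60% and 1.92% of all genes were called. With preconditioning against control 1 was higher and 3 were lower, where 10.5% and 13.0% of all genes were called. ATP6V1G1 (−1.13 ± 0.20) and ATP6V1F (−1.25 ± 0.22), both small V1 subunits, fell with preconditioning. With preconditioning+FCCP against preconditioning 7 of the 16 rose and 1 fell, where 20.2% and 19.2% of all genes were called. The V0 subunit ATP6V0B rose by 1.23 ± 0.20 (247 ± 7.72 CPM in preconditioning+FCCP and 105 ± 6.33 CPM in preconditioning libraries; SD) and ATP6V1G1 by 1.18 ± 0.20. With preconditioning+FCCP against FCCP 2 were higher and 2 lower, where 17.9% and 17.7% of all genes were called, and ATP6V0A2 rose by 1.51 ± 0.25. The interaction was called for ATP6V1G1 (1.28 ± 0.29) and ATP6V0A2 (1.06 ± 0.34) as higher and for ATP6V0E2 (−2.42 ± 0.49) as lower. Of all genes 9.38% were called higher and 9.60% lower. The call of ATP6V0A2 ended in 9 of 13 fits that left out a library. When the 3 libraries that stood apart were left out, 4 of the 16 were higher and 2 lower with FCCP against control, 5 and 3 with preconditioning against control, 6 and 6 with preconditioning+FCCP against FCCP, 7 and 4 against preconditioning, and 3 and 3 in the interaction. Of all genes 18.1%, 48.9%, 53.9%, 48.2% and 37.3% were called in these fits, in the same order.

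Among 27 other membrane proteins tested, 1 was called higher and 0 lower with FCCP against control, where 1.60% and 1.92% of all genes were. With preconditioning against control 6 were higher and 1 lower, where 10.5% and 13.0% of all genes were called. With preconditioning+FCCP 5 were higher and 5 lower against FCCP, where 17.9% and 17.7% of all genes were called, and 3 higher and 4 lower against preconditioning, where 20.2% and 19.2% were. With the 3 libraries that stood apart left out, 8 of the 27 were higher and 2 lower with FCCP against control, 12 and 2 with preconditioning against control, 8 and 6 with preconditioning+FCCP against FCCP, and 4 and 6 against preconditioning. Of all genes 18.1%, 48.9%, 53.9% and 48.2% were called in these fits, in the same order. The potassium and proton channel TMEM175 fell with preconditioning against control (−1.16 ± 0.21), and the channel TPCN2 (−1.59 ± 0.27) and the transporter ABCA2 (−1.07 ± 0.20) fell with preconditioning+FCCP against preconditioning. The interaction was lower for GLMP, which stabilises the transporter MFSD1 (−1.73 ± 0.35). Of 16 genes that sort enzymes to the lysosome, 5 were higher and 3 lower with preconditioning against control, where 10.5% and 13.0% of all genes were. Without the 3 libraries 7 were higher and 3 lower, where 48.9% of all genes were called. The sorting receptor SORT1 rose by 1.33 ± 0.24 with preconditioning against control (116 ± 4.51 CPM in preconditioning and 46.0 ± 5.89 CPM in control libraries, SD). With preconditioning+FCCP against preconditioning 1 sorting gene was higher and 5 were lower, where 20.2% and 19.2% of all genes were called. Without the 3 libraries 1 was higher and 6 were lower, where 48.2% of all genes were called.

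The transcription factors of the CLEAR element and their regulators were tested at 8 genes. TFEB had 11.0, 10.6 and 9.44 CPM in preconditioning+FCCP, 13.6, 14.04, 14.7 and 14.6 CPM in preconditioning, 8.40, 11.8 and 20.2 CPM in FCCP and 12.5, 12.9 and 16.1 CPM in control libraries, and was called in no comparison. TFE3 had 52.8, 57.3 and 90.4 CPM in preconditioning+FCCP, 126, 128, 138 and 116 CPM in preconditioning, 120.3, 90.8 and 102 CPM in FCCP and 106, 106 and 124 CPM in control libraries. It was lower in preconditioning+FCCP than in preconditioning (−0.92 ± 0.19, adjusted p = 0.00146) and than in FCCP libraries (−0.64 ± 0.20, adjusted p = 0.0202), with preconditioning+FCCP 3 the highest of its group. The call against FCCP ended without FCCP 1, preconditioning+FCCP 1 or preconditioning+FCCP 2. MITF had 20.4, 16.4 and 9.44 CPM in preconditioning+FCCP, 20.3, 21.5, 30.5 and 17.9 CPM in preconditioning, 13.5, 14.6 and 10.8 CPM in FCCP and 11.8, 14.8 and 12.3 CPM in control libraries, and was higher with preconditioning than in control (0.80 ± 0.26, adjusted p = 0.0383), a call that ended in 7 of 13 fits that left out a library. The folliculin complex, which through the Rag GTPases holds these factors in the cytosol, was higher with preconditioning+FCCP: FLCN rose by 1.30 ± 0.21 against preconditioning and by 1.16 ± 0.23 against FCCP, and its partners FNIP1 and FNIP2 by 1.40 ± 0.24 and 1.26 ± 0.20 against FCCP. With preconditioning against control FLCN fell (−0.73 ± 0.21). FLCN had the largest called interaction of the 8 (1.89 ± 0.31, adjusted p = 0.00144). In all, 5 of the 8 were higher and 1 lower with preconditioning+FCCP against FCCP, where 17.9% and 17.7% of all genes were called, and 4 higher and 1 lower against preconditioning, where 20.2% and 19.2% were. With preconditioning against control 2 were higher and 1 lower, where 10.5% and 13.0% of all genes were. Leaving out the 3 libraries that stood apart, 9 regulators were tested, and 4 were higher and 2 lower with preconditioning+FCCP against FCCP, 3 and 2 against preconditioning, and 4 and 1 with preconditioning against control. Of all genes 53.9%, 48.2% and 48.9% were called in these fits, in the same order. TFE3 then fell by 0.81 against FCCP and by 1.23 against preconditioning on the log2 scale, and FLCN rose by 1.12 against preconditioning, all called. Within the higher-share set, preconditioning+FCCP 3 against the 3 FCCP libraries, TFE3 changed by −0.21 (adjusted p = 0.648), FNIP1 by 1.38 (adjusted p = 0.0867) and FNIP2 by 1.22 (adjusted p = 0.0876). The summed fibroblast markers, 997 to 1150 CPM in preconditioning+FCCP against 5699 to 6504 CPM in preconditioning and 4370 to 7657 CPM in FCCP libraries, moved with these comparisons, and their part in the regulator values was not tested.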

How the data were processed

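Messenger RNA of 13 AC16 libraries was sequenced by the authors, and the deposited files hold raw read counts for 63241 gene IDs in each library. The counts were made with HISAT2 and HTSeq on hg19, per the submitters' processing notes; versions, the annotation release and the strand setting are not given in the sources used here. Reads on several genes (11.0% to 12.4%), on no gene (2.13% to 5.20%) or aligned to several places were left out of library sizes. Groups were taken from the labels.

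The counts were fitted with edgeR 4.0.16 in R 4.3.3: TMM scaling, filterByExpr (16756 genes kept), a single quasi-likelihood model in which the 13 libraries had their 4 groups as coefficients, and Benjamini-Hochberg adjustment over all genes kept. Standard errors are the log2 change divided by the root of F. DESeq2 1.42.0 and limma 3.58.1 (voom) were alternatives, beside other scalings, filters and sets of libraries. The fit was tested on simulated counts with 200 changed genes, with genes at low levels left unchanged. Of genes changed 2-fold it recovered 44% for FCCP against control and 7% for the interaction, and of those changed 4-fold 98% and 82%. Of its calls 3.4% and 7.3% were false. In every comparison of the data more than 200 genes were called, which alters the adjustment, so these shares do not give the power of the fits here. Promoters came from RefSeq (GRCh38.p14), transcript lengths and exon overlaps from GENCODE annotation; no hg19 coordinates are given.

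The 33 genes and all lists were chosen with earlier results of these data known. Per comparison, full statistics are given for up to 8 called genes a direction with the smallest adjusted p, and for up to 3 of the other lysosomal genes; TFEB, TFE3 and MITF are always given. A gene that this rule names among the other lysosomal genes is not reported here. CTSB and other genes outside that rule were named after their values were seen. Count depth limits precision for low genes such as CLN3 and NAGLU.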

Additional observations from a re-analysis of the deposited data

Results flagged for a closer look

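In the preconditioning group, the one with 4 libraries, 3 genes had a library far from the other 3 by Dixon's criterion, out of 33 checked. Chance alone gives about 1 in 20 for a gene taken by itself. The 33 genes were checked in the same 4 libraries, so their flags are not independent. The number flagged was not tested against chance. CTSK was at 2.78 CPM in preconditioning 3, with 5.06 to 5.35 CPM in the other libraries. HEXA was at 13.4 CPM in preconditioning 3, with 15.5 to 15.9 CPM in the others. ATP6V1A was at 94.2 CPM in preconditioning 1, with 85.7 to 87.0 CPM in the others.

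The change by FCCP differed with and without preconditioning, by the interaction term in edgeR's fit, for 7 of the 33 genes. Of these 1 was higher and 6 were lower, where 9.38% of all genes tested were called higher and 9.60% lower. On the log2 scale the difference was 1.99 for CTSK, −1.46 for LIPA, −1.36 for NAGLU, −1.11 for MAN2B1, −1.09 for ARSA, −0.90 for GAA and −0.62 for CTSA. Among the other lysosomal genes named, it was −1.51 for the sulfatase activator SUMF1, −1.73 for the membrane protein GLMP, −2.42 for the pump subunit ATP6V0E2, 1.28 for ATP6V1G1, 1.06 for ATP6V0A2, 1.89 for FLCN and −0.82 for TFE3. The difference for TFE3 was lost in 11 of 13 fits that left out a library.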

How the results depend on the processing

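Of the 33 genes, the number called changed with the choices as follows. For FCCP against control it was 2, and 1 with library totals, 0 with the compared groups alone (6 at an unadjusted p under 0.05 by edgeR; 0.111% of all genes called), 0 with the replicate block (9 unadjusted; 0.316% of all genes), 0 at an adjusted p under 0.01 (0.137% of all genes), 6 with a term for the library set, 16 without control 3, FCCP 1 and preconditioning+FCCP 3, and 0 within the higher-share set (13 unadjusted; 0.174% of all genes); DESeq2 called 3 and limma-voom 2. For preconditioning against control it was 9, and 3 with the replicate block, 2 at 0.01, 1 with the set term, 16 without the 3 libraries and 5 within the lower-share set. For preconditioning+FCCP against FCCP it was 11, and 6 with library totals (3 higher and 3 lower, against 2 and 9), 6 with no filter, 7 with the groups alone, 4 at 0.01, 7 with the set term, 19 without the 3 libraries and 0 within the higher-share set (5 unadjusted; 0.0168% of all genes). For preconditioning+FCCP against preconditioning it was 10, and 5 with the block, 5 at 0.01 and 17 within the lower-share set. For the interaction it was 7, and 5 with library totals (2 higher and 3 lower, against 1 and 6), 3 with the block, 2 at 0.01, 13 with the set term and 19 without the 3 libraries. Without each library in turn the counts ranged from 1 to 8, 2 to 13, 5 to 13, 8 to 14 and 5 to 14 in that order of comparisons, each highest count coming without control 3 (and, for preconditioning+FCCP against FCCP, also without FCCP 1). Of all genes 18.1%, 48.9%, 53.9%, 48.2% and 37.3% were called without the 3 libraries, in that order. With the set term 5.6%, 2.74%, 21.7%, 40.9% and 26.9% were called. For FCCP against control DESeq2 called 8.24% and limma-voom 2.28% of all genes.

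Median log2 changes moved as follows. For hydrolases it was 0.101 with library totals in preconditioning against control, −0.165 with library totals and −0.484 without the 3 libraries in preconditioning+FCCP against FCCP, 0.179 with the set term in preconditioning+FCCP against preconditioning, and −0.560 without the 3 libraries in the interaction. For membrane proteins in preconditioning against control it was 0.714 without the 3 libraries and −0.101 within the lower-share set, where its sign depends on CLN3. For pump subunits it was 0.189 with library totals in preconditioning+FCCP against FCCP and −0.318 without the 3 libraries in the interaction. Library totals moved the median of all genes to 0.186, 0.108 and 0.135 in the last 3 comparisons, so part of those shifts is common to all genes. Without each library in turn, hydrolase medians ranged from 0.275 to 0.482 for FCCP against control, the membrane median from 0.262 to 0.718 for preconditioning against control, and hydrolase medians from −0.458 to −0.314 for preconditioning+FCCP against FCCP and from −0.493 to −0.283 for the interaction. The causes were not tested. Deviations of log2 CPM from the group mean, over all genes tested, correlated by −0.187 to 0.158 between same-numbered libraries. The numbers were therefore not taken as pairs.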

Other observations

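The genes were also described by promoter, for the 20 with a matched window, with no test. With FCCP against control all 8 genes with TCACGTG were above 0, with a median log2 change of 0.53, as were 11 of the 12 without it, with a median of 0.41. In the interaction the medians were −0.61 with the element and −0.22 without it, and 2 of the 8 and 2 of the 12 were called lower. Differences ranged there from −0.90 to 0.24 with the element and from −1.46 to 0.60 without it. The medians with and without it were 0.125 and 0.02 in preconditioning against control. They were −0.17 and −0.14 in preconditioning+FCCP against FCCP, and 0.17 and 0.01 against preconditioning. Among other lysosomal genes 7 of 30 promoters of hydrolases and activators held TCACGTG, as did 3 of 24 of other membrane proteins, 3 of 15 of other pump subunits and 3 of 11 of sorting genes.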
